A study of Mus musculus with 17 samples.

Results

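Solute carriers are membrane proteins that move amino acids, sugars, nucleosides, metals and other small molecules into cells and between their compartments. The genes described here are the rows of a mouse RNA-seq count table whose symbol begins with Slc and a number. Slc2a1, Slc16a3 and Slc4a1 were left out by the rule that chose the members. Of the 10207 rows with a gene symbol, 174 matched the pattern and 171 remained after these 3 exclusions, which is 1.675% of the rows. They were grouped by substrate into carriers of amino acids (29 genes), sugars and sugar phosphates (12), nucleosides and nucleobases (5), metals and heme (24), mitochondrial carriers (32), nucleotide sugars and other Slc35 genes (18), inorganic ions and pH (19), organic anions, cations and carboxylates (14), and vitamins, choline and lipid precursors (13). The symbols of 5 further rows, such as Slc9a3r1, share the prefix but name proteins that are not transporters. The other 166 of the 171 members are counted here as carriers, among them Slc3a2, which encodes a partner chain of Slc7 carriers.

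The libraries came from sorted CD11b+ myeloid cells of BALB/c females. Tumor-associated macrophages (TAM, 3 libraries) were Gr1- F4/80+ cells, sorted after enrichment for CD45, from mammary tumors grown from 4T1-luc cells, a luciferase-carrying line of the mouse mammary carcinoma 4T1. For these tumors 100000 cells were placed in a mammary fat pad of mice aged 8 weeks, and each tumor was removed at 1 cm and digested with collagenase A and DNase. BMDM_T (4 libraries) were Gr1+ F4/80low cells flushed from the leg bones of tumor-bearing mice, and BMDM_H (4 libraries) were cells of the same gate from healthy mice. Marrow went through red cell lysis and not through collagenase. The labels give the age as 8 weeks for both tumor groups and 12 weeks for healthy mice, although the design text speaks of age-matched mice, so the tumor and the labelled age cannot be told apart between BMDM_T and BMDM_H. The labels name neither the mouse behind a library nor pooling, and p-values therefore measure the spread between these libraries, which may be technical. A second sequencing batch (4 BMDM_H libraries and 2 libraries of normal mammary gland macrophages) shared the table, but its values did not follow the gene symbols (Spearman correlation with first-batch libraries -0.018 to 0.002 over 66 pairs), and it was not analysed by gene.

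The 11 libraries used held 387940 to 3747929 counts each, highest in TAM (1748338 to 3747929). Members made up 0.813 to 0.867% of the counts in TAM, 0.501 to 0.539% in BMDM_T and 0.515 to 0.585% in BMDM_H. Levels below are TMM-scaled CPM, relative to all counts in the table. They come from the 3' ends of transcripts without a length correction and are compared between groups for 1 gene, not between genes. The sorted populations differed in their marker genes as follows. Macrophage markers (9 of 10 listed genes were in the table) summed to 59370 to 73240 CPM in TAM, and in marrow to 2101 to 2604 (BMDM_T) and 2700 to 3690 (BMDM_H). The marrow cells are labelled monocytes, but the 13 neutrophil granule and receptor markers summed to 164400 to 199500 CPM for BMDM_T and 137800 to 209300 for BMDM_H, against 340.6 to 562.2 in TAM, while monocyte markers summed to 1341 to 1869, 2096 to 3643 and 1198 to 1315 CPM. Ly6c2 was the largest part of the marrow monocyte sums, at a mean of 1037 CPM in BMDM_T, 1783 in BMDM_H and 7.002 in TAM. In the edgeR test given below, 5 of the 8 monocyte markers were higher and 3 lower in TAM than in BMDM_T. Against BMDM_H, 3 were higher and 4 lower. Dissociation stress genes such as Fos and Jun summed to 9800 to 10180 CPM in TAM and 3163 to 5873 in the marrow groups. In TAM, carcinoma epithelial markers summed to 66.67 to 101.3 CPM and fibroblast and endothelial markers to 67.74 to 100 CPM, both above the marrow groups. B cell markers (7.223 to 14.85 CPM), T and NK cell markers (8.334 to 18.03), and eosinophil, basophil and mast cell markers (0.7756 to 1.667) lay below the marrow groups, where they summed to 147.2 to 600.9, 189.8 to 307.2 and 309.7 to 615.5 CPM, and Cd79a, Ms4a1, Prg2 and Prss34 were at 0 in TAM. Krt18 made up 51.85 of the mean epithelial sum of 84.34 CPM in TAM. Pecam1 made up 62.24 of the mean fibroblast and endothelial sum of 82.96 CPM. Other members of these lists moved both ways. Epcam averaged 1.935 CPM in TAM, 2.313 in BMDM_T and 2.834 in BMDM_H, while Krt8 averaged 12.05, 3.665 and 4.061 CPM. Col1a1 averaged 7.434, 4.096 and 10.83 CPM in the same order. All of the sums above move with the TAM against marrow contrast, and their part in the results was not tested. In bulk RNA of this kind, fewer cells of a type and less RNA per cell cannot be told apart.

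Myeloid cells depend on carriers for much of their specialised work. Macrophages that digest dead cells and red cells must move amino acids, nucleosides and iron out of the lysosome and sometimes out of the cell, and the metal carrier Slc11a1 pumps divalent metals from the phagosome. Neutrophils rely on glucose uptake for glycolysis, and proliferating marrow precursors need carriers for nucleosides, folate and heme synthesis in mitochondria.

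The promoter sequences of 4 members are shown because Slc28a2 and Slc22a20 differed between the marrow groups, the lysosomal nucleoside carrier Slc29a3 moved opposite to Slc28a2 in TAM, and the cystine exchanger Slc7a11 is a textbook target of the stress factor ATF4. Each run is the 5′ part of the window that precedes the first RefSeq start listed for the gene, ending 10 bases before that start, in GRCm38.p6. The positions are chr2:122426185-122426424, plus strand for Slc28a2, chr19:5986154-5986393, minus strand for Slc22a20, chr10:60752793-60753032, minus strand for Slc29a3 and chr3:50443624-50443863, minus strand for Slc7a11. Capitals mark matches, on either strand, to TGATGNAA (the element bound by ATF4 with a C/EBP partner) in Slc7a11 and to TGACNNNGC (the antioxidant element core) in Slc22a20.
Slc28a2: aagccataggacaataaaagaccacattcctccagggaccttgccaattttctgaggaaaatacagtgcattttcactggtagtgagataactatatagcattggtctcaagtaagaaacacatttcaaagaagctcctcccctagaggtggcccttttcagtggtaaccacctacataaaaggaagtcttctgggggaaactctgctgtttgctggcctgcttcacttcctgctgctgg
Slc22a20: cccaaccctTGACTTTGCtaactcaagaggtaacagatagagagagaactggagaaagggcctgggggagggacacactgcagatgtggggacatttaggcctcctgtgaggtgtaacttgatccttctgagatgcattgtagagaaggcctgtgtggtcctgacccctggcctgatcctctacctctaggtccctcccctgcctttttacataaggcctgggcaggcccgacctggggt
Slc29a3: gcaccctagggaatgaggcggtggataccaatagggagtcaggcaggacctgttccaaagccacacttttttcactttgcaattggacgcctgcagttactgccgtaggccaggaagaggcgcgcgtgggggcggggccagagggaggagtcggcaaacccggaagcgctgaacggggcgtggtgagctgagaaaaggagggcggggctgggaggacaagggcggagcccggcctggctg
Slc7a11: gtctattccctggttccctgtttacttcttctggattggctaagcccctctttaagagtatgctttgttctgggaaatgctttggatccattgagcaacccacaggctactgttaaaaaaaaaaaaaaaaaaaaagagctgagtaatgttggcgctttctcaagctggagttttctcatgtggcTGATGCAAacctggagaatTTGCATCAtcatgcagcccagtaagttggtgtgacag

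A promoter window of 250 bases before the start was matched for 127 of the 171 members and for 27025 genes in all. TGATGNAA was present in 3.15% of the member windows and 3.53% of all windows, TGACNNNGC in 20.5% and 10.1%, the hypoxia element core ACGTG in 23.6% and 16.6%, and the lysosomal CLEAR E-box TCACGTG, which contains ACGTG, in 7.87% and 3.15%. For the TAM against BMDM_T calls, 41.7% of all tested members were higher and 22.5% lower, and over all tested genes 30.1% and 28.7%. Of the tested members with TCACGTG, 4 were higher (Slc13a3, Slc25a33, Slc36a1 and Slc38a7) and 1 was not called. With TGACNNNGC 11 were higher, 4 lower and 3 not called, with ACGTG 9 were higher, 3 lower and 6 not called, and with TGATGNAA 1 was higher and 1 not called. Those not tested numbered 5, 8, 12 and 2, and nothing is read from these counts about any motif. A match describes letters and is not evidence of binding.

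Few carriers were called between marrow cells of tumor-bearing and healthy mice, and the purine nucleoside carrier Slc28a2 was the clearest of them. A negative binomial model (edgeR quasi-likelihood, Benjamini-Hochberg adjustment over 7518 tested genes, threshold 0.05) could test 120 of the 171 members, and 51 had too few counts. Of the 120, 25 passed the low-count filter through 1 group alone (18 through TAM, 3 through BMDM_T and 4 through BMDM_H), so the counts below describe tested members and are not counts over all members. Between BMDM_T and BMDM_H, 3 of 120 members were called (2.5%), 2 higher and 1 lower in BMDM_T, where 4.82% of all tested genes were called (2.82% higher and 2% lower). An unadjusted p under 0.05 was reached by 19 members. The libraries of the groups did not overlap for 12 of the 120 members, against 11.2% of all genes. The median standard error of a member was 0.29 on the log2 scale, and the 117 uncalled members spanned log2 differences of -1.54 to 1.48, so changes of less than about 1 log2 unit were often below what these libraries resolve.

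Markers of several cell types moved between the marrow groups as well. Of 13 neutrophil markers, 5 were higher in BMDM_T and none lower, among them the granule proteases Elane (log2 1.59 ± 0.18) and Prtn3 (2.05 ± 0.18), the peroxidase Mpo (1.79 ± 0.19) and the chemokine receptor Cxcr2 (1.48 ± 0.16), although the summed levels given above overlap. Of 8 monocyte markers 5 were lower in BMDM_T, including Ccr2 (-1.11 ± 0.17), and of 9 macrophage markers 4 were lower, including C1qa (-1.71 ± 0.31). The precursor B cell genes Vpreb1 (2.07 ± 0.30) and Vpreb3 (1.29 ± 0.23) were the 2 of 4 tested B cell markers that were higher. All of these named markers had an edgeR adjusted p at or below 0.00234. Several of these log2 differences are of the size seen for Slc28a2, and their part in the carrier results was not tested.

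**Figure D1:**
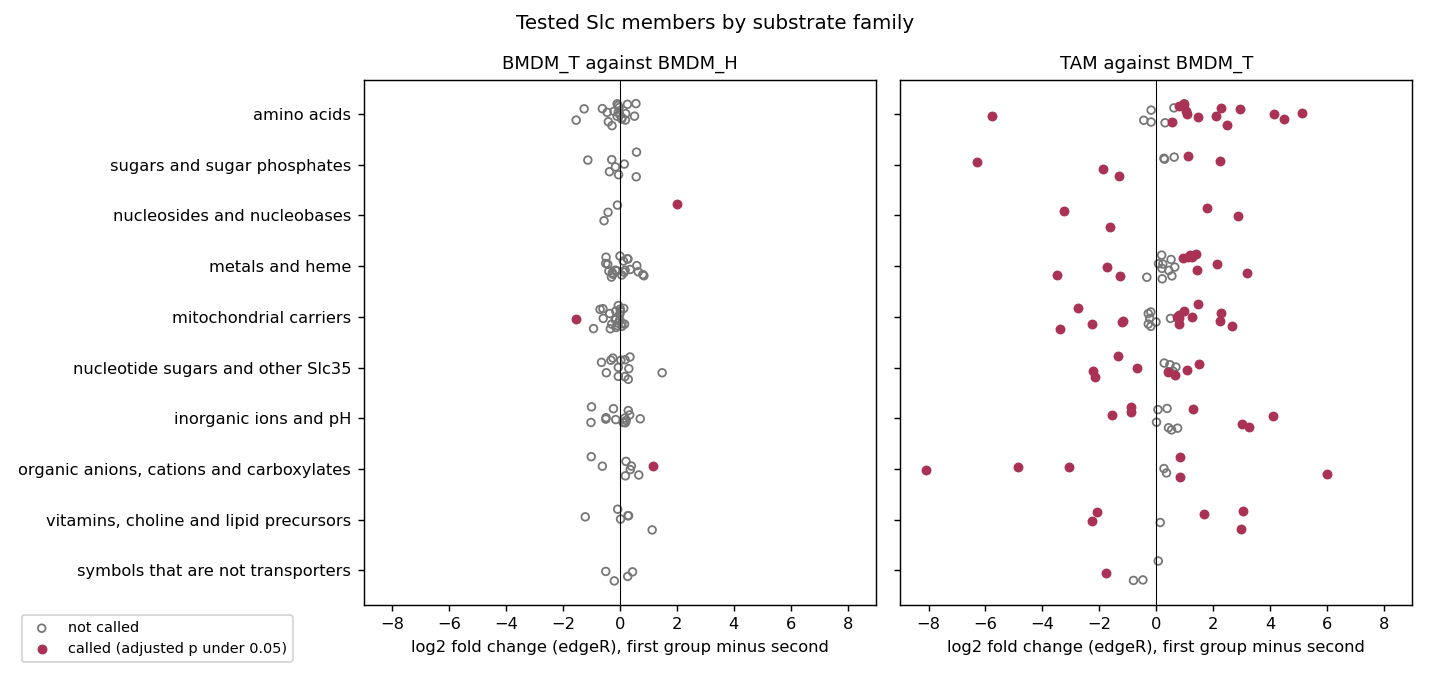
Log2 fold changes of the 120 tested members by substrate family, for BMDM_T against BMDM_H (left) and TAM against BMDM_T (right). Each point is 1 gene, and filled points have an edgeR adjusted p under 0.05. In the marrow comparison 3 points are filled, and in the TAM comparison 77 are. The leftmost point, Slc22a20, has no TAM count, and its fitted value is not a bound.

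Slc28a2 encodes CNT2, which concentrates purine nucleosides such as adenosine inside cells with a sodium gradient. The gene lies at chr2:122426477-122461137, plus strand (GENCODE M21, mm10), and its promoter is printed above. It was measured at 76.5, 40.3, 40.4 and 55.03 CPM in the 4 BMDM_T libraries, 16.7, 10.5, 5.58 and 20.8 CPM in the 4 BMDM_H libraries and 6.67, 4.77 and 5.17 CPM in the 3 TAM libraries. Every BMDM_T library was above every other library. The log2 difference of BMDM_T over BMDM_H was 2.00 ± 0.31 (SE; edgeR adjusted p = 0.000459), a 4.01-fold higher level, and it was 2.02 with an edgeR adjusted p of 6e-05 when replicate numbers entered as a block. A neighbouring copy, listed as Gm14085 and named Slc28a2b in RefSeq, followed the same order with 65.7, 46.2, 34.6 and 56.8 CPM in BMDM_T, 14.3, 16.1, 20.5 and 18.2 in BMDM_H and 3.89, 5.83 and 5.17 in TAM, and a log2 difference of 1.61 ± 0.26 (edgeR adjusted p = 0.00066). How counting divided reads between the copies is not given in the sources used here, so the level of each copy by itself is uncertain.

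Slc22a20 encodes OAT6, an organic anion carrier. It was measured at 21.5, 27.7, 20.8 and 28.9 CPM in BMDM_T and 15.9, 9.65, 7.44 and 7.81 CPM in BMDM_H, and no count was seen in TAM. The 4 BMDM_T libraries were above all 4 BMDM_H libraries, by a log2 difference of 1.17 ± 0.32 (edgeR adjusted p = 0.0441). Slc22a20 passed the low-count filter through BMDM_T alone, the group where it was higher. This call is weak: it ended under total-count scaling (adjusted p = 0.0719), under DESeq2 (adjusted p = 0.0648) and when any BMDM_T library or BMDM_H replicate 2, 3 or 4 was left out (edgeR adjusted p = 0.0551 to 0.141). The remaining called member, Slc25a26, which carries S-adenosylmethionine into mitochondria, stood under 10 CPM in both groups and was picked out after its values were seen. It read 2.15, 2.52, 3.46 and 1.804 CPM in BMDM_T, 6.37, 7.24, 7.44 and 10.4 CPM in BMDM_H and 16.1, 13.8 and 17.6 CPM in TAM, with BMDM_T below every other library. Its log2 difference was -1.56 ± 0.46 (edgeR adjusted p = 0.0494), from 10 counts in BMDM_T and 25 in BMDM_H. The edgeR adjusted p rose to 0.0619 with the replicate block and to 0.0575 to 0.117 with any 1 library left out. Apart from the main fit, Slc25a26 was called only under total-count scaling (-1.67, edgeR adjusted p = 0.0342). It passed the low-count filter through TAM alone.

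Carriers that fell just outside the threshold included the glucose carrier Slc2a3 and the lysosomal peptide and histidine carrier Slc15a3. Slc2a3 averaged 417 ± 103 CPM in BMDM_T and 277 ± 48.5 CPM in BMDM_H (SD, n = 4 each), a log2 difference of 0.58 ± 0.18 (edgeR adjusted p = 0.076). With the replicate block the value was 0.59 and passed the threshold (edgeR adjusted p = 0.0345). For Slc15a3 the log2 difference of 0.56 ± 0.19 (edgeR adjusted p = 0.0916) likewise passed with the block (0.59, edgeR adjusted p = 0.0266), which brought the number of called members to 4, all higher in BMDM_T. The neutral amino acid exchanger Slc7a8 read 4.31, 5.04, 6.93 and 2.71 CPM in BMDM_T and 9.55, 11.3, 7.44 and 20.8 CPM in BMDM_H without overlap, and its log2 difference of -1.26 ± 0.39 missed the threshold (edgeR adjusted p = 0.0701) except under total-count scaling (-1.37, edgeR adjusted p = 0.0468), which moved the median of all genes to -0.12.

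The red cell precursor markers in the table (8 of 12 listed) were all lower in BMDM_T than in BMDM_H, at summed levels of 5.383 to 21.85 CPM against 57.3 to 309.7 CPM. Values of 2 members known from red cell precursors are given beside them. The glutamine carrier Slc38a5, picked out after its values were seen, had 24 counts over the BMDM_H libraries, 1 over BMDM_T and 0 over TAM, a BMDM_H to BMDM_T ratio of 28.7 (95% interval 4.68 to 1180, counting error only), and did not pass the low-count filter. It was called lower in BMDM_T under DESeq2 (log2 -4.79, adjusted p = 0.00465), without the filter (-4.52, edgeR adjusted p = 0.00717) and without any 1 TAM library (edgeR adjusted p = 0.00763 to 0.0108). The mitochondrial iron carrier Slc25a37, mitoferrin-1, read 1.08, 21.01, 18.5 and 9.92 CPM in BMDM_T and 22.3, 17.7, 26.03 and 39.03 CPM in BMDM_H and was not called (log2 -0.93 ± 0.45, edgeR adjusted p = 0.282). The part of red cell precursors in these values was not tested. Slc46a3, also untested with the filter and picked out after its values were seen, had 4 counts in BMDM_T and 25 in BMDM_H and was called lower in BMDM_T without the filter (log2 -2.76, edgeR adjusted p = 0.0305) and without any 1 TAM library (edgeR adjusted p = 0.0235 to 0.0419).

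In TAM, 13 of 20 tested amino acid carriers and 11 of 23 mitochondrial carriers were higher than in marrow cells of tumor-bearing mice. The glucose carrier Slc2a3 was 77.7-fold lower. Against BMDM_T, 50 of 120 tested members were higher (41.7%) and 27 lower (22.5%), so that 64.2% were called, against 58.9% of all tested genes, of which 30.1% were higher and 28.7% lower. The median log2 difference was 0.49 over the members and 0.03 over all genes. Both figures carry the filter: 18 members (15% of those tested, and 8.14% of all tested genes) passed it through TAM alone, 16 of them called higher and none lower, and 3 passed through BMDM_T alone, all called lower. Among the 95 members that passed through more than 1 group, 34 were called higher and 23 lower. Libraries did not overlap for 80 members (66.7%), and for 58.1% of all genes. Against BMDM_H, 51 were higher and 27 lower (65%, with 56.3% of all genes called, 28% higher and 28.3% lower), and the median was 0.46. Both contrasts use the same TAM libraries, so the second is not separate evidence. The summed level of all members was 7611 to 8420 CPM in TAM, 5387 to 5979 CPM in BMDM_T and 5303 to 5726 CPM in BMDM_H. Total-count scaling moved the median of all genes to 0.18 and the TAM against BMDM_T calls to 61 higher and 26 lower.

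**Figure D2:**
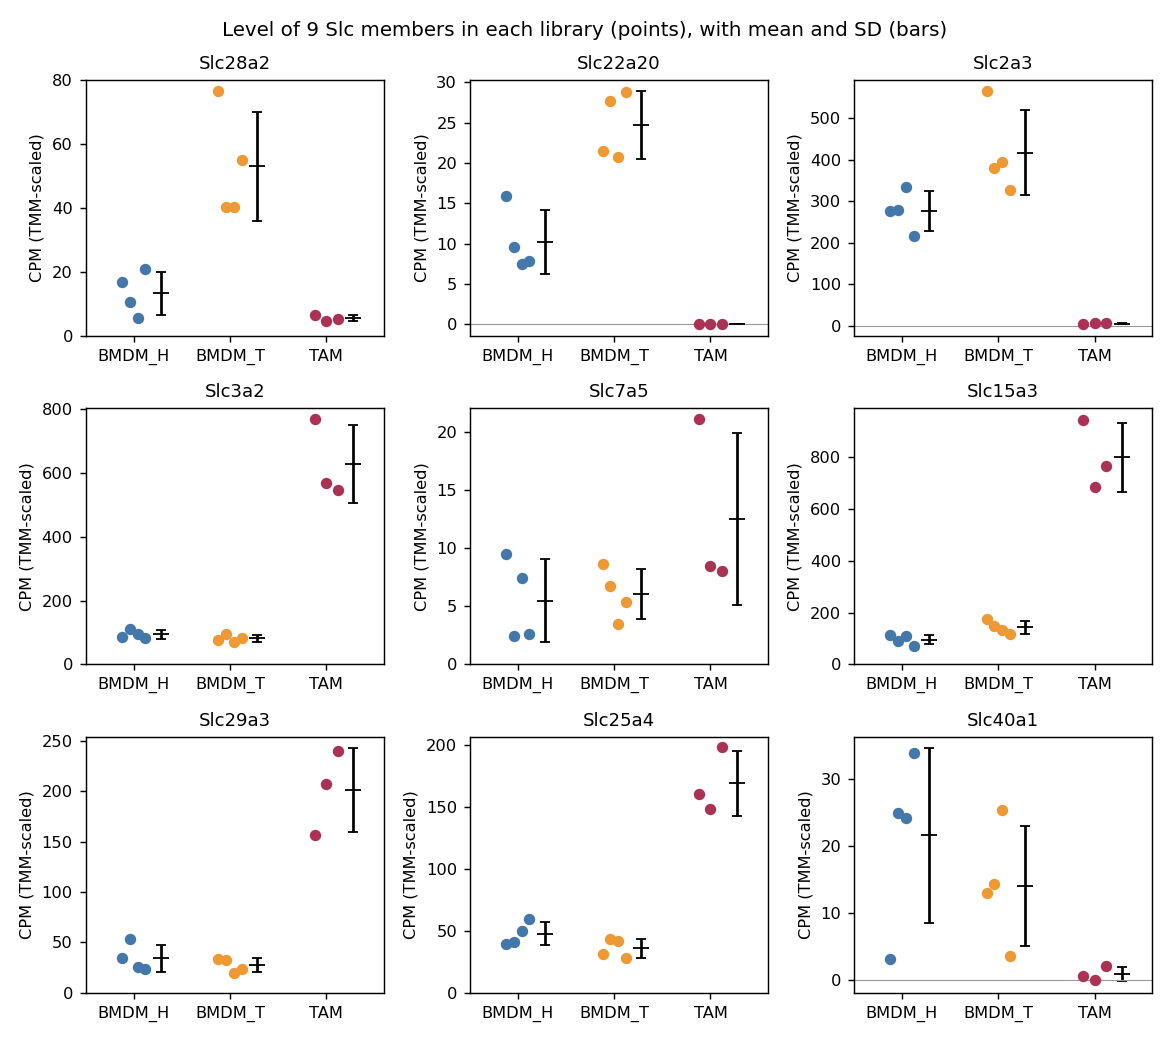
Level of 9 members in each of the 11 libraries (points) in TMM-scaled CPM, with the mean and SD of each group (bars); each panel has its own linear axis. Slc28a2 is highest in BMDM_T, Slc22a20 is at 0 and Slc2a3 near 0 in TAM, and Slc3a2, Slc15a3, Slc29a3 and Slc25a4 are higher in all 3 TAM libraries than in any marrow library, while Slc7a5 overlaps.

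Of the 20 tested amino acid carriers, 13 were higher in TAM than in BMDM_T, 1 was lower and 6 were not called. That is 70% called, against 58.9% of all tested genes. The 20 include 4 that passed the low-count filter through TAM alone, all called higher, and of the other 16, 9 were higher and 1 lower. Slc3a2, which encodes a partner chain of Slc7 carriers, is counted among the 13. The family's summed level was 2238 to 2751 CPM in TAM, 711.1 to 846.3 CPM in BMDM_T and 737.8 to 789.8 CPM in BMDM_H, without overlap between TAM and marrow. Much of the TAM sum lay in Slc15a3 (686.9 to 946.8 CPM) and Slc3a2 (547.3 to 767.3 CPM). Between the marrow groups none of the 20 was called.

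Slc3a2 encodes CD98, the heavy chain that takes light chains of the Slc7 family to the cell surface (gene at chr19:8706882-8723369, minus strand). It read 767, 566 and 547 CPM in TAM, 77.5, 94.1, 70.4 and 82.99 CPM in BMDM_T and 84.4, 111, 96.7 and 83.3 CPM in BMDM_H. The lowest TAM library was far above the highest marrow library, and the log2 difference from BMDM_T was 2.94 ± 0.18 (edgeR adjusted p = 1.99e-11), or 7.67-fold. Among its light chains, Slc7a8, a neutral amino acid exchanger, read 96.1, 71.1 and 80.2 CPM in TAM and rose by 4.12 ± 0.30 log2 units (edgeR adjusted p = 2.64e-10), and Slc7a7, which exports cationic amino acids, rose by 0.79 ± 0.18 (edgeR adjusted p = 0.000974). For Slc7a5, the large neutral amino acid carrier, the libraries read 21.1, 8.49 and 8.02 CPM in TAM, 8.61, 6.72, 3.46 and 5.41 CPM in BMDM_T and 9.55, 2.41, 7.44 and 2.602 CPM in BMDM_H. TAM replicate 1 stood apart and the other TAM libraries lay within the marrow range, so that the log2 difference of 0.98 ± 0.47 was not called (edgeR adjusted p = 0.0752); without TAM replicate 3 it was 1.25 (edgeR adjusted p = 0.0371). The cystine exchanger Slc7a11, whose promoter holds 2 TGATGNAA matches, had 7 counts over the TAM libraries and 0 over both marrow groups. That was too few to test, and 0 counts allow up to 0.728 CPM for BMDM_T and 0.869 CPM for BMDM_H.

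Carriers of cationic amino acids, creatine and taurine were also higher in TAM. Slc7a2 supplies arginine to macrophages and had 148 counts in TAM (20, 9.02 and 24.6 CPM) against 3 in BMDM_T, a ratio of 26.7 (95% interval 8.95 to 131) by counting error only, while the related Slc7a1 rose by 1.04 ± 0.40 log2 units (edgeR adjusted p = 0.0282). The creatine carrier Slc6a8 had 84 counts in TAM (15.6, 10.6 and 9.31 CPM) and 1 in BMDM_T, a ratio of 45.4 (95% interval 7.93 to 1810). Both genes were detected in every TAM library and in at most 2 of the 4 BMDM_T libraries. The taurine carrier Slc6a6 rose by 0.99 ± 0.24 (edgeR adjusted p = 0.00129). Slc7a2, Slc7a1 and Slc6a8 passed the low-count filter through TAM alone. For Slc7a1, BMDM_H replicate 2 (15.28 CPM) lay inside the TAM range (14.32 to 21.11 CPM).

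Amino acid carriers of the lysosome were among those that rose. Slc15a3, which exports histidine and small peptides from lysosomes, read 947, 687 and 767 CPM in TAM, 176, 149.6, 132 and 119 CPM in BMDM_T and 113, 89.3, 109.7 and 72.9 CPM in BMDM_H. All TAM libraries were above all marrow libraries, with a log2 difference of 2.47 ± 0.18 from BMDM_T (edgeR adjusted p = 4.64e-10). Its 3' end overlaps Tmem132a on the other strand (5.49, 0.287 and 0.858 CPM in TAM, BMDM_T and BMDM_H), and reads of the pair cannot be told apart without strand. Slc38a7, a lysosomal glutamine carrier, rose by 2.10 ± 0.30 (edgeR adjusted p = 5.07e-06), Slc36a1, a proton-coupled exporter, by 0.57 ± 0.23 (edgeR adjusted p = 0.0396) with overlapping libraries, and Slc15a4 was not called (0.31 ± 0.18). The plasma membrane glutamine carriers Slc1a5 (-0.18 ± 0.22) and Slc38a2 (-0.18 ± 0.17) were not called either. The only amino acid carrier called lower in TAM than in BMDM_T was Slc6a13, a carrier of GABA and related compounds, with 11.8, 14.3, 9.24 and 12.6 CPM in BMDM_T and 16.7, 14.5, 18.6 and 18.2 CPM in BMDM_H. TAM held 1 count of it, a BMDM_T to TAM ratio of 92.5 (95% interval 15.9 to 3730). Against BMDM_H, the aromatic amino acid carrier Slc16a10 was lower in TAM as well (log2 -0.85 ± 0.27, edgeR adjusted p = 0.0109), a call that ended without BMDM_H replicate 1 (edgeR adjusted p = 0.0516).

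Sugar carriers moved in both directions. Of 8 tested, 2 were higher in TAM than in BMDM_T, 3 lower and 3 not called. That is 62.5% called, against 58.9% of all tested genes. Slc2a3 encodes GLUT3, a glucose carrier of high affinity (gene at chr6:122727809-122801640, minus strand). It read 3.33, 6.89 and 5.43 CPM in TAM against 565, 379.9, 396 and 327 CPM in BMDM_T and 278, 279, 335 and 216 CPM in BMDM_H. The highest TAM library was far below the lowest marrow library, and Slc2a3 fell by 6.28 ± 0.29 log2 units from BMDM_T (edgeR adjusted p = 3.5e-13), or 77.7-fold. The neutrophil markers, summed above, moved in the same direction, and their part was not tested. Slc2a6 (GLUT6), found in lysosomes, read 40.6, 44.5 and 32.6 CPM in TAM and 192, 143, 113 and 121 CPM in BMDM_T and fell by 1.87 ± 0.24 (edgeR adjusted p = 1.62e-06), and the glucose-6-phosphate carrier Slc37a1 fell by 1.30 ± 0.23 (edgeR adjusted p = 6.65e-05). The intracellular glucose carrier Slc2a8 (GLUT8) went the other way, with 38.9, 28.6 and 34.6 CPM in TAM, 7.54, 5.88, 5.77 and 9.02 CPM in BMDM_T and 5.57, 8.85, 14.9 and 7.81 CPM in BMDM_H. It rose by 2.25 ± 0.30 log2 units without overlap (edgeR adjusted p = 1.67e-06), and Slc45a4 rose by 1.11 ± 0.22 (edgeR adjusted p = 0.000266). Slc2a8 passed the low-count filter through TAM alone. Summed sugar carriers came to 237.9 to 266.3 CPM in TAM, 613.4 to 902.3 CPM in BMDM_T and 484 to 611.8 CPM in BMDM_H. Slc2a3 made up 417.1 of the mean BMDM_T sum of 710.8 CPM and 276.9 of the mean BMDM_H sum of 552.5 CPM. The gap in these sums between TAM and marrow lay mostly in this gene. Slc2a1, left out by rule, is not part of the sums.

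All 4 tested nucleoside carriers differed between TAM and BMDM_T, 2 in each direction, where 58.9% of all tested genes were called. The lysosomal nucleoside exporter Slc29a3 (ENT3, gene at chr10:60712072-60752794, minus strand) read 157, 207 and 239 CPM in TAM, 33.4, 32.8, 19.6 and 23.4 CPM in BMDM_T and 34.2, 53.1, 26.03 and 23.4 CPM in BMDM_H. Every TAM library was above every marrow library, and the log2 difference from BMDM_T was 2.87 ± 0.24 (edgeR adjusted p = 2.06e-09). Slc29a1 (ENT1), which lets nucleosides equilibrate across the plasma membrane, read 90.6, 85.9 and 59.5 CPM in TAM and 9.69, 26.9, 23.1 and 28.9 CPM in BMDM_T, with BMDM_H replicate 4 (59.9 CPM) inside the TAM range, and rose by 1.79 ± 0.29 (edgeR adjusted p = 2.19e-05). Slc28a2 was lower in TAM than in BMDM_T by 3.25 ± 0.33 log2 units (edgeR adjusted p = 4.44e-08) and lower than in BMDM_H by 1.25 ± 0.40 (edgeR adjusted p = 0.0104), in the latter case with overlapping libraries. The purine nucleobase carrier Slc43a3 read 8.89, 11.1 and 15.5 CPM in TAM, 30.1, 56.3, 33.5 and 31.6 CPM in BMDM_T and 48.5, 57.9, 20.5 and 20.8 CPM in BMDM_H and fell by 1.63 ± 0.34 (edgeR adjusted p = 0.000328). Carriers that equilibrate nucleosides were thus higher in TAM, and the sodium-driven Slc28a2 and the nucleobase carrier Slc43a3 were lower. Slc29a2 had 18 counts in TAM, 4 in BMDM_T and 7 in BMDM_H and was not tested.

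Metal carriers were higher in TAM for 8 of 21 tested genes and lower for 3, with 10 not called. In this family 52.4% were called, below the 58.9% of all tested genes. The 3 that passed the filter through TAM alone (Slc39a14, Slc30a1 and Slc39a6) were all among the higher ones. Of the 17 that passed through more than 1 group, 5 were higher and 2 lower. Slc40a1 encodes ferroportin, the iron exporter (gene at chr1:45908068-45926523, minus strand). It read 0.556, 0 and 2.07 CPM in TAM, 12.9, 14.3, 25.4 and 3.61 CPM in BMDM_T and 3.18, 24.9, 24.2 and 33.8 CPM in BMDM_H. TAM was below every marrow library, although BMDM_T replicate 4 and BMDM_H replicate 1 were close to it, and the log2 difference from BMDM_T was -3.49 ± 0.79 (edgeR adjusted p = 0.000626). Slc11a1 (NRAMP1), the phagosomal metal pump, read 264, 295 and 295 CPM in TAM and 131, 114, 128 and 103 CPM in BMDM_T and rose by 1.26 ± 0.18 (edgeR adjusted p = 3.61e-06). The related iron importer Slc11a2 (DMT1) read 33.3, 36.6 and 44.5 CPM in TAM and 5.38, 12.6, 8.08 and 8.12 CPM in BMDM_T and rose by 2.13 ± 0.27 (edgeR adjusted p = 1.03e-06). Both Slc11 carriers were higher and the iron exporter lower in TAM, each without overlap between TAM and marrow libraries.

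Zinc carriers differed in both directions. Slc39a14 (ZIP14), which imports zinc and iron, read 22.8, 16.4 and 11.1 CPM in TAM and 2.15, 0.841, 1.15 and 2.71 CPM in BMDM_T and rose by 3.19 ± 0.47 (edgeR adjusted p = 5.75e-06). The zinc exporter Slc30a1 (ZnT1) rose by 1.42 ± 0.35 (edgeR adjusted p = 0.00145), and the importer Slc39a1 (ZIP1) rose by 1.17 ± 0.26 (edgeR adjusted p = 0.000746). For Slc39a6 (ZIP6) the log2 difference was 1.41 ± 0.52 (edgeR adjusted p = 0.0242), a call that ended under DESeq2 (adjusted p = 0.0549) and without BMDM_T replicate 3 or 4 or TAM replicate 2 or 3 (edgeR adjusted p = 0.0517 to 0.0863). The importer Slc39a4 (ZIP4) fell by 1.74 ± 0.42 (edgeR adjusted p = 0.00113) from 7.54, 12.6, 8.08 and 8.12 CPM in BMDM_T to 2.22, 3.71 and 2.33 CPM in TAM. The copper carrier Slc31a2 (CTR2) fell by 1.26 ± 0.24 (edgeR adjusted p = 0.000151), which became 0.70 log2 units (edgeR adjusted p = 0.0798) when all libraries were thinned to the smallest. The heme carrier Slc48a1 was not called (0.08 ± 0.17). Among genes that respond to zinc and iron, 6 of 8 tested were higher in TAM than in BMDM_T and none lower. That is 75% called, against 58.9% of all tested genes. The higher ones include the metallothioneins Mt1 (log2 3.93 ± 0.20) and Mt2 (5.76 ± 0.29), the ferritin heavy chain Fth1 (2.06 ± 0.21) and the heme oxygenase Hmox1 (1.07 ± 0.23), all with edgeR adjusted p at or below 0.000575.

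Of 23 tested mitochondrial carriers, 11 were higher in TAM than in BMDM_T, 5 lower and 7 not called. That is 69.6% called, against 58.9% of all tested genes. The sum over the family was 2232 to 2768 CPM in TAM, 1542 to 1730 CPM in BMDM_T and 1660 to 1787 CPM in BMDM_H. Much of the higher TAM sum lay in Slc25a3 alone, with 704 to 1139 CPM in TAM, 271 to 405 in BMDM_T and 294 to 383 in BMDM_H. Slc25a4 (ANT1), which exchanges ADP for ATP across the inner membrane, read 161, 148 and 199 CPM in TAM, 31.2, 43.7, 41.6 and 27.96 CPM in BMDM_T and 39.8, 41.02, 50.2 and 59.9 CPM in BMDM_H. All TAM libraries were above all marrow libraries, with a log2 difference of 2.23 ± 0.19 from BMDM_T (edgeR adjusted p = 4.61e-09). Its paralog Slc25a5 (ANT2) read 200, 222 and 279 CPM in TAM and 125, 179.9, 150.1 and 100.1 CPM in BMDM_T, a log2 difference of 0.75 ± 0.23 (edgeR adjusted p = 0.00791) that did not pass in thinned libraries (edgeR adjusted p = 0.051). The phosphate carrier Slc25a3 read 823, 704 and 1139 CPM in TAM and 289.6, 405, 321 and 271 CPM in BMDM_T and rose by 1.47 ± 0.19 (edgeR adjusted p = 1.3e-06). The carriers that bring ADP and phosphate to the ATP synthase were thus higher in TAM.

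Other mitochondrial carriers that rose were the pyrimidine nucleotide carrier Slc25a33 (2.29 ± 0.23, edgeR adjusted p = 4.71e-08), the S-adenosylmethionine carrier Slc25a26 (2.66 ± 0.38, edgeR adjusted p = 4.57e-06), the glutamate carrier Slc25a22 (1.27 ± 0.21, edgeR adjusted p = 2.77e-05) and the citrate carrier Slc25a1 (0.99 ± 0.25, edgeR adjusted p = 0.001703). Slc25a26 passed the low-count filter through TAM alone. The 3' end of Slc25a26 overlaps Lrig1 (1.55, 2.27 and 4.46 CPM in TAM, BMDM_T and BMDM_H), and the reads cannot be told apart without strand. The oxoglutarate carrier Slc25a11 (-0.01 ± 0.14) and the carnitine carrier Slc25a20 (-0.28 ± 0.25) were not called. Among those that fell, Slc25a24, which exchanges ATP-magnesium for phosphate, read 17.8, 12.7 and 16.03 CPM in TAM and 115, 109, 99.3 and 96.5 CPM in BMDM_T and fell by 2.75 ± 0.20 (edgeR adjusted p = 3.47e-10). Slc25a29, a carrier of basic amino acids, read 1.11, 0.5304 and 1.03 CPM in TAM and 9.69, 7.56, 13.8 and 10.8 CPM in BMDM_T and fell by 3.37 ± 0.52 (edgeR adjusted p = 8.54e-06). The glycine carrier of heme synthesis, Slc25a38, fell by 1.20 ± 0.23 (edgeR adjusted p = 0.000138), Slc25a45 fell by 1.18 ± 0.17 (edgeR adjusted p = 3.95e-06), and mitoferrin-1 Slc25a37 fell by 2.27 ± 0.56 (edgeR adjusted p = 0.00153) although BMDM_T replicate 1 (1.08 CPM) was below all 3 TAM libraries (1.67, 2.12 and 3.36 CPM).

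**Figure D3:**
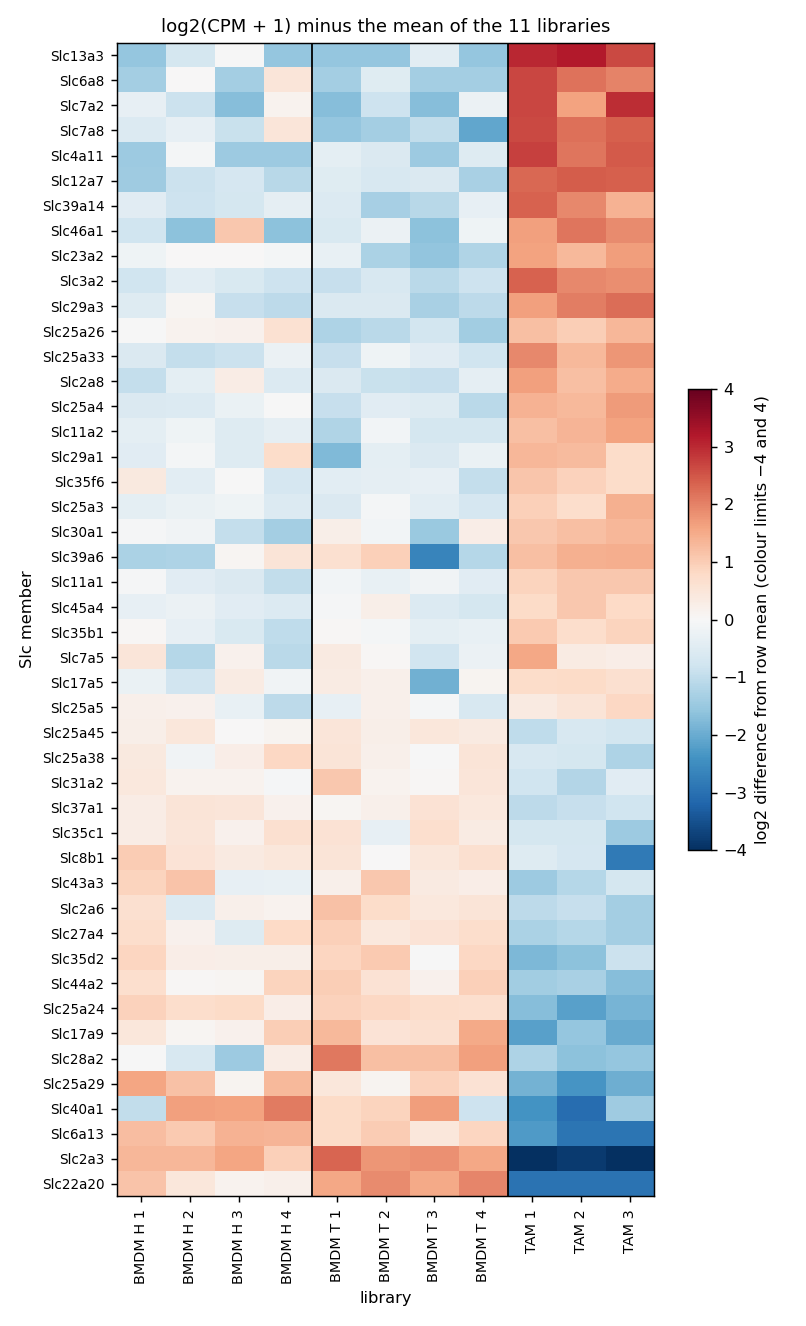
Heat map of 46 named members (rows) in the 11 libraries (columns). Colour shows log2(CPM + 1) minus the gene's mean over the libraries, limited to -4 and 4 (red higher, blue lower). The 3 TAM libraries stand apart from the 8 marrow libraries, and within marrow the clearest step is at Slc28a2.

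Among the remaining families, Slc35 carriers, which bring nucleotide sugars and ATP into the endoplasmic reticulum and Golgi, were split (4 higher, 4 lower and 5 not called of 13). In this family 61.5% were called, against 58.9% of all tested genes. The ATP carrier of the endoplasmic reticulum Slc35b1 rose by 1.08 ± 0.21 (edgeR adjusted p = 0.000165) and Slc35f6 by 1.5 ± 0.29 (edgeR adjusted p = 0.000175), while the GDP-fucose carrier Slc35c1 fell by 1.33 ± 0.25 (edgeR adjusted p = 0.000143) and Slc35d2 fell by 2.15 ± 0.31 (edgeR adjusted p = 5.59e-06). Of 13 ion carriers, 4 were higher, 3 lower and 6 not called. That is 53.8% called, below the 58.9% of all tested genes. The 4 that passed the low-count filter through TAM alone, Slc12a7 and Slc4a11 among them, gave 3 of the higher calls. Of the 9 that passed through more than 1 group, 1 was higher and 3 lower. The potassium-chloride cotransporter Slc12a7 (KCC4) read 65.01, 71.1 and 69.3 CPM in TAM, 8.61, 7.56, 8.08 and 4.51 CPM in BMDM_T and 3.98, 6.43, 7.44 and 5.21 CPM in BMDM_H, a rise of 3.25 ± 0.25 with all TAM libraries above all marrow libraries (edgeR adjusted p = 7.65e-10), and its relative Slc12a4 (KCC1) rose by 3.00 ± 0.32 (edgeR adjusted p = 1.11e-07). Slc4a11 had 106 counts in TAM against 3 in BMDM_T, a ratio of 19.1 (95% interval 6.36 to 94.1). The mitochondrial sodium-calcium exchanger Slc8b1 fell by 1.57 ± 0.37 (edgeR adjusted p = 0.00103). It read 38.3, 34.5 and 6.98 CPM in TAM and 79.7, 55.5, 76.2 and 86.6 CPM in BMDM_T. TAM replicate 3 stood apart and enlarges this difference. The chloride-bicarbonate exchanger Slc4a2 fell by 0.88 ± 0.24 (edgeR adjusted p = 0.00334). Slc4a2 overlaps Fastk at its 3' end (40.5, 34.5 and 34.4 CPM in TAM, BMDM_T and BMDM_H).

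Some organic anion and carboxylate carriers were close to absent from 1 side of the comparison. Slc13a3 (NaDC3), which imports dicarboxylates such as succinate, read 22.8, 25.5 and 17.1 CPM in TAM and had 1 count in BMDM_T and 2 in BMDM_H. The TAM to BMDM_T ratio was 83.8 (95% interval 14.8 to 3330). Slc22a20 stood at 0 in all 3 TAM libraries against 103 counts in BMDM_T and 39 in BMDM_H. With 3 counts over the TAM group as the floor, TAM was at least 63.4-fold lower against BMDM_T, and against BMDM_H at least 28.7-fold lower. Slc17a9 (VNUT), which loads ATP into secretory vesicles, read 7.22, 11.7 and 8.27 CPM in TAM and 90.4, 53.8, 56.6 and 106 CPM in BMDM_T and fell by 3.08 ± 0.30 (edgeR adjusted p = 2.09e-08). The family counted 3 higher, 3 lower and 2 not called of 8 (75% called, against 58.9% of all tested genes). Slc13a3 passed the low-count filter through TAM alone and Slc22a20 through BMDM_T alone. Of the 4 that passed through more than 1 group, 2 were higher and 1 lower. The lysosomal sialic acid exporter Slc17a5 had a log2 difference of 0.83 ± 0.35 (edgeR adjusted p = 0.0478), and its call ended under DESeq2 (adjusted p = 0.0871) and without any 1 of BMDM_T replicates 2 to 4, the BMDM_H libraries or the TAM libraries (edgeR adjusted p = 0.0513 to 0.147).

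Of 6 tested carriers of vitamins, choline and lipid precursors, 3 were higher, 2 lower and 1 was not called. That is 83.3% called, against 58.9% of all tested genes. The 3 higher ones (Slc46a1, Slc19a1 and Slc23a2) all passed the low-count filter through TAM alone. Of the 3 that passed through more than 1 group, 0 were higher and 2 lower. Both folate carriers rose: Slc46a1 (PCFT), which works at acid pH, read 8.89, 12.7 and 10.6 CPM in TAM and 1.08, 1.68, 0 and 1.804 CPM in BMDM_T (3.05 ± 0.64, edgeR adjusted p = 0.000307), and the reduced folate carrier Slc19a1 read 12.2, 22.8 and 26.4 CPM and 2.15, 11.8, 3.46 and 7.22 CPM (1.67 ± 0.41, edgeR adjusted p = 0.00163). Slc19a1 overlaps Col18a1 at its 3' end (3.61, 1.53 and 2.76 CPM in TAM, BMDM_T and BMDM_H). The ascorbate carrier Slc23a2 (SVCT2) rose by 2.97 ± 0.40 (edgeR adjusted p = 2.18e-06). The choline carrier-like Slc44a2 fell by 2.24 ± 0.24 (edgeR adjusted p = 1.25e-07) and the fatty acid carrier Slc27a4 (FATP4) fell by 2.08 ± 0.31 (edgeR adjusted p = 6.99e-06). Among the 5 rows that name no carrier, 4 were tested and the scaffold Slc9a3r1 alone was called, fallen by 1.76 ± 0.19 (edgeR adjusted p = 1.13e-07).

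Carriers and partner proteins without an Slc symbol were read beside the members. Of 18 tested, 8 were higher in TAM than in BMDM_T and 2 lower. That is 55.6% called, below the 58.9% of all tested genes. Those that rose included Bsg (basigin, the chaperone of lactate carriers, log2 1.11 ± 0.22), the lysosomal pair Mfsd1 (1.62 ± 0.24) and Glmp (1.32 ± 0.15), the cholesterol exporter of lysosomes Npc1 (1.28 ± 0.27) and the copper pump Atp7a (2.15 ± 0.47), with edgeR adjusted p between 3.14e-07 and 0.000582. The mitochondrial pyruvate carrier subunit Mpc2 fell by 0.93 ± 0.21 (edgeR adjusted p = 0.000617) and the aquaglyceroporin Aqp9 fell by 2.59 ± 0.42 (edgeR adjusted p = 1.77e-05). Genes of the ATF4 amino acid response, to which Slc3a2, Slc7a5 and Slc7a11 belong, moved in both directions, with 2 of 9 tested higher and 3 lower. In this list 55.6% were called, also below the share of all tested genes. The asparagine synthetase Asns fell by 3.41 ± 0.32 (edgeR adjusted p = 1.43e-08), the growth regulator Ddit4 rose by 3.26 ± 0.25 (edgeR adjusted p = 6.15e-10) and Atf4 itself was not called (0.11 ± 0.18).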

How the data were processed

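Raw counts per gene from 3' end mRNA libraries with sample barcodes and molecular identifiers were used as the authors deposited them, in 1 table with 14214 further rows that carry no symbol and no first-batch values. The submitters' processing notes name bcl2fastq, STAR 2.4.2a, HTSeq and mm10. Nothing used here says how identifiers were collapsed or which strand setting, annotation and gene filter were applied. No pair of replicates agreed within counting error (chi-square per degree of freedom 3.07 to 16.29), so none was merged.

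Counts of 11 libraries of 3 groups entered 1 edgeR 4.0.16 quasi-likelihood fit in R 4.3.3 (filterByExpr, TMM). Log2 differences carry standard errors derived from the quasi-likelihood F value. In simulated counts for 7518 genes, each gene had the same mean in all 3 groups, apart from a small set changed by known folds. The shares of seeded changes called were 58% (2-fold) and 93% (4-fold) between BMDM_T and BMDM_H. They were 61% and 94% between TAM and BMDM_T, and 51% and 94% between TAM and BMDM_H. Calls outside the seeded genes numbered 9, 11 and 8 in the same order. In the data 58.9% of all tested genes were called between TAM and BMDM_T. The simulated shares may therefore not hold for the TAM contrasts. Ratios from 1 to 3 counts have exact 95% binomial intervals, which like the floor of 3 counts cover counting error only.

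Members, families and lists were chosen with earlier results of these data known. The text names, for each family and comparison, called members without overlap that reach 10 CPM in 1 of the groups, up to 4 rises and 4 falls (2 for the smaller families), called members with 0 counts in a group, and Slc3a2, Slc7a5, Slc7a11, Slc11a1, Slc40a1, Slc25a4 and Slc25a5 for their known roles. Further members are named as examples after their values were seen. Same-numbered BMDM_T and BMDM_H replicates deviated together (r = 0.214, 0.231, 0.125 and 0.124), although the labels do not say what they share. The main fit had no replicate block, so its marrow p-values take no account of replicate numbers. A block entered only as 1 of the alternatives, where 4 members were called between the marrow groups, all higher in BMDM_T. Alternatives covered DESeq2 1.42.0, limma-voom (limma 3.58.1), RLE and total-count scaling, count filters, the 2 groups alone, thinned counts, a fold threshold of 1.5, the block, single libraries left out, and the 2 smallest BMDM_H libraries left out. Promoters come from RefSeq tables (GRCm38.p6). Motifs were searched in the 250 bases before the start, without the 50 after it. No protein sequences were used here. Values of 1 member that the naming rule would have named, and of 1 marker gene, are not reported here.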

Additional observations from a re-analysis of the deposited data

Results flagged for a closer look

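In 108 groups of 4 marrow libraries, for 55 named members, 7 had 1 library set apart from the other 3 by Dixon's criterion, which flags about 1 group in 20 by chance. Slc13a3 was 1.154 CPM in BMDM_T replicate 3 and 0 in the others. Slc6a8 was 0.8405 CPM in BMDM_T replicate 2 and 0 in the others, and Slc4a11 was 1.609 CPM in BMDM_H replicate 2 and 0 in the others; each of these rests on 1 or 2 counts. Slc46a1 was 5.579 CPM in BMDM_H replicate 3 and at most 0.7959 CPM in the other BMDM_H libraries. Slc35d2 was 40.59 CPM in BMDM_H replicate 1 against 26.02 to 26.54 CPM. BMDM_T replicate 2 was high for Slc39a4 (12.61 CPM against 7.537 to 8.118 CPM) and for Slc43a3 (56.31 CPM against 30.15 to 33.48 CPM).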

How the results depend on the processing

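For 103 comparisons of a named member, 22 alternative settings gave 2177 values, of which 2097 kept direction and side of the threshold, 68 kept direction and lost the call, 4 gained a call and 8 changed sign. The changes of sign were all in uncalled marrow differences near 0. Slc7a5 became -0.03 under total-count scaling and ranged from -0.29 (without BMDM_H replicate 2) to 0.24 (without BMDM_T replicate 3) over single libraries left out. Slc25a5 ranged from -0.23 to 0.08, and Slc11a1 became -0.01 without the 2 smallest BMDM_H libraries. The number of called members between BMDM_T and BMDM_H was 3, and it became 0 with at least 50 counts in 3 libraries (where 12 of 64 had an unadjusted p under 0.05, and Slc28a2 was not tested), 1 against a fold of 1.5, 1 without the 2 smallest BMDM_H libraries, 2 under DESeq2, and 1 to 4 with 1 library left out. Slc28a2 was called between the marrow groups in every setting that tested it. For TAM against BMDM_T (77 called) and TAM against BMDM_H (78 called), fewer genes tested gave 47 and 49 calls with at least 50 counts, and 45 and 44 in libraries thinned to the smallest; other settings gave 57 to 93. Of 1320 family counts, 1185 stayed within 1.5 times the main count. With the replicate block the 3 comparisons had 4, 76 and 78 called members, and same-numbered TAM and marrow replicates did not deviate together in every pair (r = -0.053 to 0.071). Low counts left 51 of 171 members untested.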
